A study of Mus musculus with 12 samples.

Results

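The genes described here are 46 genes of DNA replication and mitosis, chosen by their symbols out of 24454 genes listed in the expression table. Of these, 27 act in S phase or at its entry and 19 act in mitosis or peak around it, and each of the 46 was matched by its symbol. RNA had been sequenced from leukemic blasts of 2 genotypes, wild type (WT) and STAT3β-deficient (Δβ), the latter lacking the shorter splice isoform of the transcription factor STAT3. Blasts came from the spleen (SP) and the bone marrow (BM) of diseased mice, as 12 libraries of which 3 belong to each genotype in each organ. Fetal liver cells of either genotype had been transformed with a retrovirus carrying MLL-AF9, an oncogenic fusion of acute myeloid leukemia (AML), together with the fluorescent protein Venus. The cells were injected intravenously into male NSG mice (NOD.Cg-Prkdcscid Il2rgtm1Wjl/SzJ) aged 6 to 8 weeks, which lack lymphocytes of their own but keep myeloid and erythroid cells, and Venus-positive cells were sorted when the hosts were diseased. All 4 groups thus carry MLL-AF9 and Venus. The labels do not say whether SP and BM of the same number come from the same host, nor how many transformed lines the 3 numbers stand for, so the p-values measure the spread between these samples. The deposited values are per gene and cannot separate the isoforms of Stat3, so they give no check of the deletion.

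A cell that enters S phase first loads the MCM helicase onto its replication origins with the help of Cdc6 and Cdt1. The loaded helicase is then activated by partners such as the GINS complex, and DNA polymerases copy both strands behind it while the sliding clamp PCNA holds them in place. Many of these genes are transcribed through E2F factors, which cyclin E and its kinase release from RB-type repressors, whereas many mitotic genes are repressed until G2 by the DREAM complex through CHR elements near their start sites. In AML, as in other fast-growing tissues, the level of these transcripts largely follows the share of cycling cells. In these bulk samples, fewer cycling cells and less RNA per cycling cell cannot be told apart.

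The start regions of both classes are shown first, because they differ in the letters that E2F and DREAM are known to read. RefSeq windows of 300 bases (250 before and 50 after a start, assembly GRCm38.p6) matched 38 of the 46 members by symbol. No window was matched for Mcm4, Gins1, Gins2, Pole, Ccne2, Ccna2, Aurkb or Kif20a. The following stretches precede the start of 4 S-phase genes (Cdc6, Pola1, Mcm5 and Mcm6) and 4 mitotic genes (Top2a, Kif11, Cdk1 and Cdc20). Capitals mark matches to an E2F motif in the S-phase genes and in Cdk1, and matches to a CHR motif in the mitotic genes. For Cdc6, which the GENCODE annotation starts further upstream, only the 30 bases around its match are given.
Cdc6 (origin licensing factor, chr11:98908002-98908031, plus strand): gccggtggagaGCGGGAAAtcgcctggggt
Pola1 (catalytic subunit of DNA polymerase alpha, chrX:93632156-93632325, minus strand): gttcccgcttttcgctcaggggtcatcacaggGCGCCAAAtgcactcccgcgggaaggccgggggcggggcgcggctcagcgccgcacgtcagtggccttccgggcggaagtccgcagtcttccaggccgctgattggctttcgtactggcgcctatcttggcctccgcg
Mcm5 (MCM helicase subunit, chr8:75109339-75109508, plus strand): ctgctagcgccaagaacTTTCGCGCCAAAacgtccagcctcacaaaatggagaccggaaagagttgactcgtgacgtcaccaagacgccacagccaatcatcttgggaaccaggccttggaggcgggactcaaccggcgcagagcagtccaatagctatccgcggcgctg
Mcm6 (MCM helicase subunit, chr1:128359706-128359875, minus strand): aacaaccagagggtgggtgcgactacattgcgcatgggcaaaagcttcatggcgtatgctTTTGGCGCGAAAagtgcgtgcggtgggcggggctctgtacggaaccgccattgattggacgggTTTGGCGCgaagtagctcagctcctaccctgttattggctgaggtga
Top2a (DNA topoisomerase that untangles sister chromatids, chr11:99024190-99024359, minus strand): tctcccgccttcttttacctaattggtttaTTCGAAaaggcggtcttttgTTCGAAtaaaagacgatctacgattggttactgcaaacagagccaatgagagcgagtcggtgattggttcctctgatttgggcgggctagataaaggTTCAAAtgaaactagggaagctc
Kif11 (kinesin that drives the spindle poles apart, chr19:37376212-37376381, plus strand): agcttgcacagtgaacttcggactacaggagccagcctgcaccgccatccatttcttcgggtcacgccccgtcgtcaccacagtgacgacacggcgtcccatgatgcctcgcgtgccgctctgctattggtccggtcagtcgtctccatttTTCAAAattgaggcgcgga
Cdk1 (main mitotic kinase, chr10:69352939-69353082, minus strand): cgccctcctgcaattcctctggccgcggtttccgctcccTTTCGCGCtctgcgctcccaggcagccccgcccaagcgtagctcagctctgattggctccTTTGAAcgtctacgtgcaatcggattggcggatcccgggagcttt
Cdc20 (activator of the anaphase-promoting complex, chr4:118437353-118437513, minus strand): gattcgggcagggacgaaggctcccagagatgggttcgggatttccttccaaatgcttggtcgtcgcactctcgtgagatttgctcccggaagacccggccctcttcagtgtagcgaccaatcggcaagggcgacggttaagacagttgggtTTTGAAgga

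The E2F spellings searched were TTTCCCGC, TTTCGCGC, TTTGCCGC and TTTGGCGC, and the CHR spellings were TTTGAA and TTCGAA, on both strands. In Mcm5 and in the first run of capitals of Mcm6, matches on opposite strands overlap each other. An E2F match lay in the windows of 10 of 22 S-phase members and 1 of 16 mitotic members (Cdk1), against 2.60% of the 27025 genes with a RefSeq window and 2.26% of all windows. A CHR match lay in 4 of 22 S-phase members and 13 of 16 mitotic members, against 21.7% of these 27025 genes and 19.2% of all windows. In 12 of those 13 mitotic members it was within 40 bases of the start. The letters CCAAT, the element bound by NF-Y, were found on either strand in 14 of 22 S-phase and 15 of 16 mitotic members, and in 41.1% of all genes with a window. These are letter matches, not measured binding, and 4 members held both an E2F and a CHR match. The plot of match positions shows the E2F matches of the S-phase genes scattered over the window and the CHR matches of the mitotic genes gathered near the start.

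**Figure D1:**
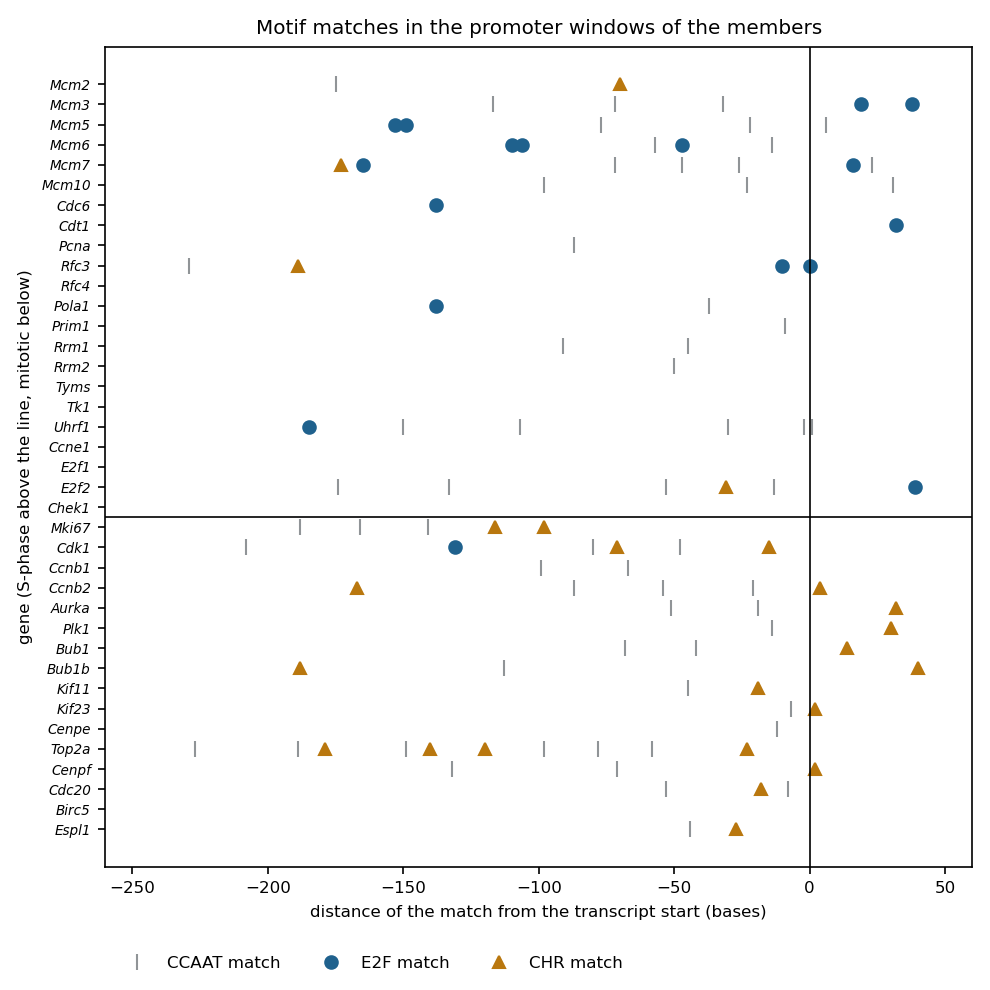
Positions of E2F, CHR and CCAAT letter matches in the RefSeq promoter windows of 38 members, as the distance in bases of the match from the transcript start (0). Of 16 mitotic members, 12 hold a CHR match within 40 bases of the start, and E2F matches lie in 10 of 22 S-phase members.

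All 46 members passed the filter on low values, a mean of at least 10 normalized counts over the 12 libraries, which 11476 of 24454 genes passed. Library depth was 9001051 to 13859727 reads on genes, and 1 read corresponded to 0.775 to 1.17 normalized counts. The lowest member value, that of Ccne2 in WT SP replicate 1, rested on 127 reads. Per kilobase of exon, the members with the highest mean level over the 12 libraries were Mcm5 (1478 normalized counts per kb), Mcm6 (1402) and Mcm3 (1257), followed by Mki67 (1084). The lowest were Gins2 (80.1) and Ccnb1 (85.9). The exon length joins the exons of all GENCODE transcripts of a gene, so this ranking depends on the annotation. Together the 46 members took 0.847 to 1.06% of the normalized counts of a library, except in WT SP, where replicates 1, 2 and 3 gave 0.521, 0.716 and 1.01%.

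WT SP replicate 1 stood apart for these genes. It was the lowest of the 12 libraries for 42 of the 46 members, 26 S-phase and 16 mitotic, whereas it was the lowest for 19.7% of all genes tested. The exceptions were E2f2, Ccnb1, Ccnb2 and Kif23. WT SP replicate 3 was the lowest for none of the members and the highest for 11, among them Ccna2, Cdk1, Plk1 and Cdc20. On the mean log2 difference of each gene from its own 12-library mean, the SP values of the S-phase genes were -0.68, -0.18 and 0.15 for WT (replicates 1, 2 and 3) against 0.16, 0.17 and 0.08 for Δβ. Those of the mitotic genes were -0.53, -0.15 and 0.24 for WT against -0.21, 0.10 and 0.22 for Δβ. The 3 WT SP libraries thus spanned a wider range than those of any other group in both classes, and their range held the whole Δβ SP range of the mitotic genes. In BM the S-phase genes lay at 0.16, -0.08 and 0.05 in WT and -0.05, 0.16 and 0.06 in Δβ, and the mitotic genes at -0.01, 0.10 and 0.24 in WT and -0.13, -0.03 and 0.14 in Δβ.

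**Figure D2:**
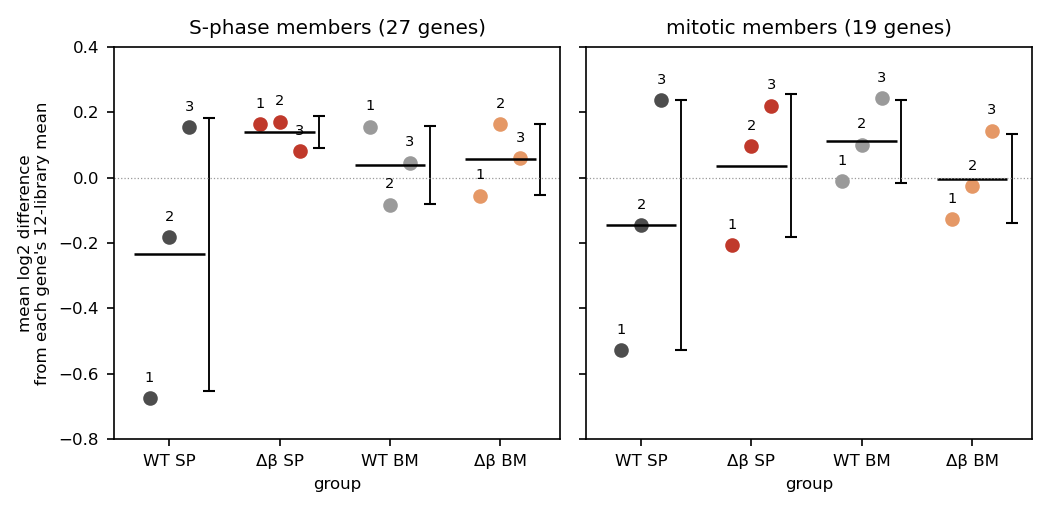
Mean log2 difference from each gene's 12-library mean (y axis) for 27 S-phase and 19 mitotic members, by group (x axis). Points are libraries with their replicate number, horizontal lines are group means and vertical bars are 1 SD on either side of the mean (n = 3). WT SP replicate 1 lies at -0.68 for S-phase and -0.53 for mitotic genes, below every other library.

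S-phase and mitotic genes did not rank the libraries in the same way. In Δβ SP replicate 1 none of the 27 S-phase genes but 18 of the 19 mitotic genes were below their 12-library mean, so the S-phase score exceeded the mitotic score by 0.37, more than in any other library. WT BM replicate 2 was the reverse, with 24 of 27 S-phase genes and 2 of 19 mitotic genes below their mean. By group, the S-phase minus mitotic difference was -0.09 ± 0.06 for WT and 0.10 ± 0.26 for Δβ in SP, and -0.07 ± 0.21 for WT and 0.06 ± 0.14 for Δβ in BM (SD, n = 3 each). The ranges of the genotypes overlapped in both organs, and while Δβ SP replicate 1 lay at 0.37 the other Δβ SP libraries lay at 0.07 and -0.14.

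**Figure D3:**
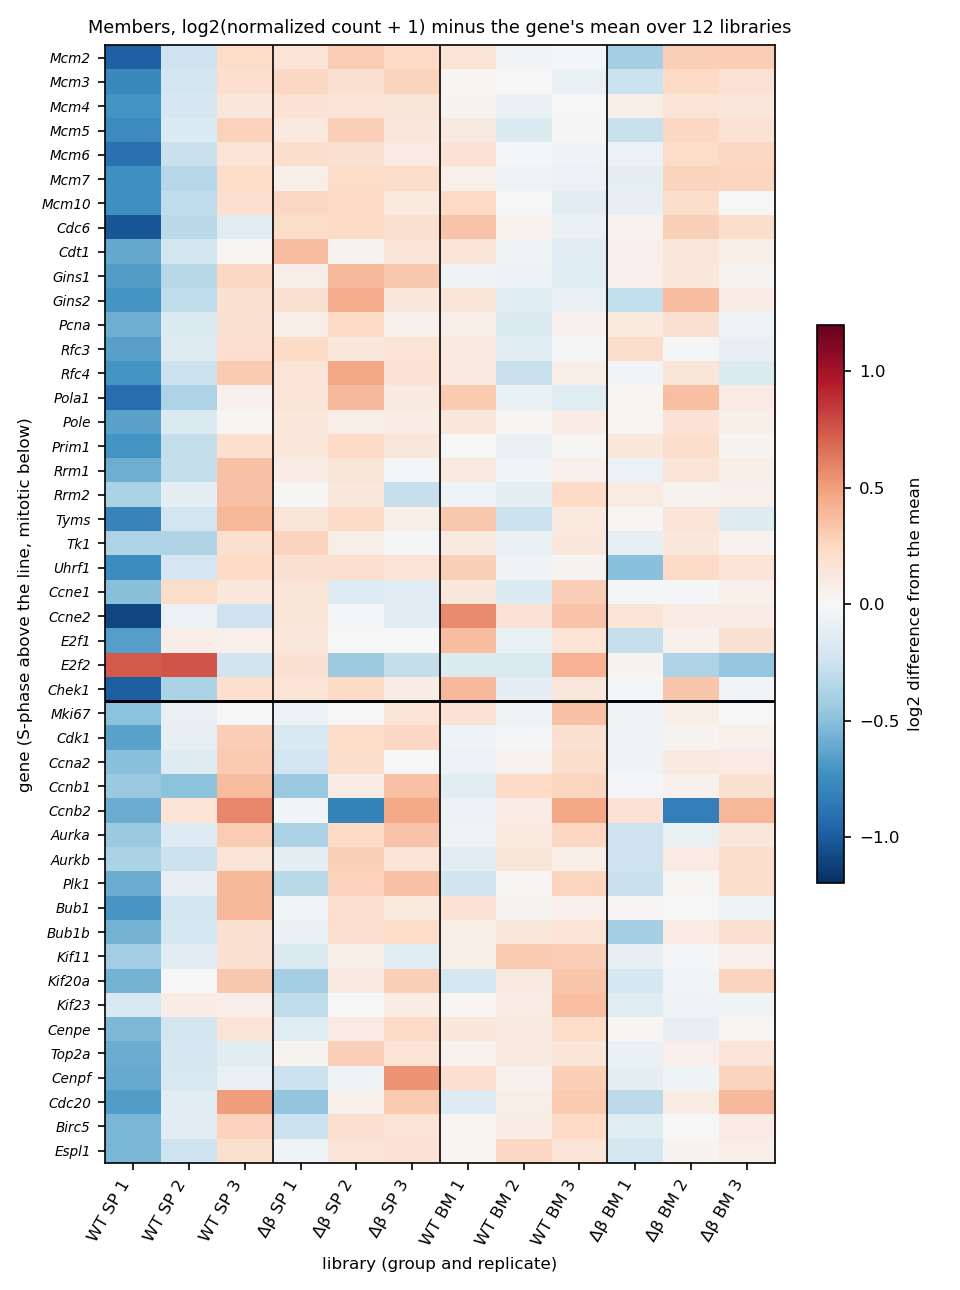
Each of the 46 members (rows, S-phase above the line and mitotic below) in each of the 12 libraries (columns), as log2(normalized count + 1) minus the gene's own mean over the 12 libraries. WT SP replicate 1 is the lowest library in 42 of 46 rows, E2f2 is high in WT SP replicates 1 and 2, and Ccnb2 is low in replicate 2 of Δβ SP and Δβ BM.

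The first comparison asked whether Δβ blasts differed from WT blasts in SP. With limma and Benjamini-Hochberg adjustment over 11476 genes, 0 of 46 members had an adjusted p under 0.05, against 0.105% of all genes tested. At an unadjusted p under 0.05, 13 members were higher in Δβ and 0 lower, against 5.93% of all genes higher and 8.96% lower. The edgeR quasi-likelihood test also called 0 members, and DESeq2 called 1 (Top2a, higher), where it called 1.15% of all genes higher. The log2 fold change was above 0 for 43 of 46 members, against 48.1% of all genes. Its median was 0.44 over the S-phase genes (26 of 27 above 0) and 0.20 over the mitotic genes (17 of 19 above 0), against -0.01 over all genes tested. In 6 members the groups did not overlap and Δβ was higher (Mcm4, Cdc6, Cdt1, Pola1, Pole and Top2a), where 7.92% of all genes did so, and in 0 members it was lower without overlap, against 9.37% of all genes.

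These values changed with the WT SP libraries at the ends of the range. Without WT SP replicate 1 the median log2 fold change was 0.20 over the S-phase genes and -0.00 over the mitotic genes, 32 of 46 members were above 0, and 0 members were called, against 0.0786% of all genes. Without WT SP replicate 3 the medians were 0.66 and 0.43. In that fit 24 members were called higher, 20 S-phase and 4 mitotic, and 1 lower (E2f2), against 4.70% of all genes higher and 11.7% lower. The direction of the S-phase median held in both, while its size changed by more than 1.5 times.

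Among helicase genes, Mcm2, an MCM subunit, had 1811, 3008 and 4159 normalized counts in SP for WT against 3990, 4411 and 4214 for Δβ, and in BM 3983, 3488 and 3500 for WT against 2710, 4362 and 4387 for Δβ (replicates 1, 2 and 3 in each group). Mcm5, another subunit, had 3403, 5160 and 7013 normalized counts in SP for WT against 6277, 7077 and 6379 for Δβ, and in BM 6246, 5174 and 5838 for WT against 4828, 6900 and 6522 for Δβ. Both were low in WT SP replicate 1 and at the Δβ SP level in WT SP replicate 3, so the groups overlapped. The log2 fold change in SP was 0.57 (SE 0.27, adjusted p = 0.351 from limma) for Mcm2 and 0.40 (SE 0.23, adjusted p = 0.418 from limma) for Mcm5. All 7 MCM genes were above 0 in SP, with a median of 0.48, of which 0.23 was left without WT SP replicate 1. Mcm4 was the MCM subunit without overlap of the SP groups, with 1936, 2767 and 3499 normalized counts in SP for WT against 3598, 3550 and 3539 for Δβ, and in BM 3260, 3019 and 3194 for WT against 3342, 3576 and 3517 for Δβ. Its log2 fold change in SP was 0.42 (SE 0.17, adjusted p = 0.300 from limma).

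Cdc6, which brings the helicase to the origins (chromosome 11, 98907801 to 98923940, plus strand, GRCm38), had 406, 660 and 749 normalized counts in SP for WT against 961, 975 and 944 for Δβ, and in BM 1045, 847 and 781 for WT against 848, 1006 and 953 for Δβ. The 3 Δβ SP libraries lay within a narrow band above all WT SP libraries. Its log2 fold change in SP was the largest of the members, 0.71 (SE 0.20, adjusted p = 0.218 from limma), and 0.45 without WT SP replicate 1. Across 23 alternatives its adjusted p in SP ranged from 0.018 without WT SP replicate 3 to 0.527. The 4 licensing and GINS genes had a median of 0.52 in SP (0.31 without WT SP replicate 1), and Cdt1, the licensing partner of Cdc6, did not overlap between genotypes there.

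Pcna, the sliding clamp, had 1635, 2196 and 2780 normalized counts in SP for WT against 2578, 2890 and 2539 for Δβ, and in BM 2599, 2197 and 2541 for WT against 2663, 2791 and 2348 for Δβ. WT SP replicate 3 was among its highest libraries, and its groups overlapped. Pola1, which starts each new strand with primase (chromosome X, 93304767 to 93632155, minus strand), had 682, 994 and 1329 normalized counts in SP for WT against 1427, 1679 and 1385 for Δβ, and in BM 1597, 1211 and 1159 for WT against 1305, 1653 and 1375 for Δβ. All Δβ SP libraries of Pola1 were above all WT SP libraries, with a log2 fold change of 0.63 (SE 0.22, adjusted p = 0.263 from limma), or 0.38 without WT SP replicate 1. The 6 genes for the clamp, its loader, the polymerases and primase were all above 0 in SP, with a median of 0.41, or 0.19 without WT SP replicate 1.

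The genes that supply deoxynucleotides were nearer to 0. Rrm2, the regulated subunit of ribonucleotide reductase, had 2037, 2439 and 3390 normalized counts in SP for WT against 2669, 2902 and 2183 for Δβ, and in BM 2565, 2441 and 3129 for WT against 2839, 2731 and 2773 for Δβ. Its log2 fold change in SP was 0.00 (SE 0.18, adjusted p = 0.996 from limma), although it too was lowest in WT SP replicate 1. The group of Rrm1, Rrm2, Tyms and Tk1 had a median of 0.26 in SP and 0.05 without WT SP replicate 1. Uhrf1, which carries DNA methylation over to new strands, had 1369, 2007 and 2730 normalized counts in SP for WT against 2618, 2657 and 2584 for Δβ, and in BM 2804, 2237 and 2352 for WT against 1624, 2700 and 2586 for Δβ. The low value in Δβ BM replicate 1 was shared by Mcm2 and Mcm5 and was not seen in Rrm2.

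The 6 G1/S and checkpoint genes, Uhrf1 among them, had the widest range of log2 fold changes in SP of the S-phase roles, from -0.59 (E2f2) to 0.56 (Chek1, a replication checkpoint kinase). E2f1, an activator of S-phase genes, had 727, 1216 and 1202 normalized counts in SP for WT against 1266, 1147 and 1157 for Δβ, and in BM 1485, 1079 and 1287 for WT against 948, 1194 and 1304 for Δβ. Ccne1, cyclin E1, had 278, 458 and 430 normalized counts in SP for WT against 436, 353 and 358 for Δβ, and in BM 429, 351 and 483 for WT against 390, 387 and 410 for Δβ. Ccne1 was within or above the Δβ SP range in WT SP replicates 2 and 3, and its log2 fold change in SP was 0.00 (SE 0.19, adjusted p = 0.997 from limma). Ccne2, cyclin E2, had 145, 296 and 261 normalized counts in SP for WT against 344, 305 and 285 for Δβ, and in BM 459, 350 and 394 for WT against 349, 329 and 330 for Δβ, which is the widest span of the members, 3.17 times from the lowest to the highest library.

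E2f2, a second activator of the E2F family (chromosome 4, 136172394 to 136196057, plus strand), differed in pattern from the other S-phase genes. Its values were 3454, 3502 and 1759 normalized counts in SP for WT against 2355, 1546 and 1699 for Δβ, and in BM 1854, 1840 and 2770 for WT against 2123, 1607 and 1506 for Δβ. The high libraries were WT SP replicates 1 and 2, in which most other S-phase genes were below their means, and WT BM replicate 3. Its log2 fold change in SP was -0.59 (SE 0.28, adjusted p = 0.354 from limma), the lowest of the members, and -0.92 without WT SP replicate 3 (adjusted p = 0.0266 from limma).

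Among the mitotic genes, Mki67, the marker that coats mitotic chromosomes, had 7665, 10143 and 10869 normalized counts in SP for WT against 10324, 10792 and 12133 for Δβ, and in BM 12151, 10362 and 13763 for WT against 10450, 11346 and 10838 for Δβ. Cdk1, the kinase that starts mitosis, had 847, 1237 and 1631 normalized counts in SP for WT against 1166, 1542 and 1577 for Δβ, and in BM 1282, 1305 and 1500 for WT against 1279, 1356 and 1385 for Δβ. Ccnb1, its cyclin B1 partner, had 260, 251 and 461 normalized counts in SP for WT against 260, 376 and 452 for Δβ, and in BM 322, 419 and 424 for WT against 352, 368 and 404 for Δβ. In all 3 genes the SP groups overlapped, since WT SP replicate 3 was within the Δβ SP range for Mki67 and above it for Cdk1 and Ccnb1. Plk1, a kinase of spindle assembly, had 703, 994 and 1405 normalized counts in SP for WT against 851, 1292 and 1358 for Δβ, and in BM 900, 1079 and 1270 for WT against 887, 1072 and 1236 for Δβ. Log2 fold changes in SP were 0.23 (SE 0.16) for Mki67, 0.24 (SE 0.21) for Cdk1, 0.18 (SE 0.26) for Ccnb1 and 0.20 (SE 0.26) for Plk1, and limma's adjusted p ranged from 0.494 for Mki67 to 0.728 for Ccnb1.

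Top2a (chromosome 11, 98992943 to 99024189, minus strand) was the mitotic gene without overlap in SP. It had 6233, 8183 and 8531 normalized counts in SP for WT against 9691, 11475 and 10526 for Δβ, and in BM 9654, 10138 and 10387 for WT against 8912, 9780 and 10428 for Δβ. All WT SP libraries were below all others, and the log2 fold change in SP was 0.48 (SE 0.14, adjusted p = 0.223 from limma), or 0.34 without WT SP replicate 1. DESeq2 gave an adjusted p of 0.0287. Without WT SP replicate 3, limma's adjusted p was 0.0309, and the highest over the alternatives was 0.586.

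**Figure D4:**
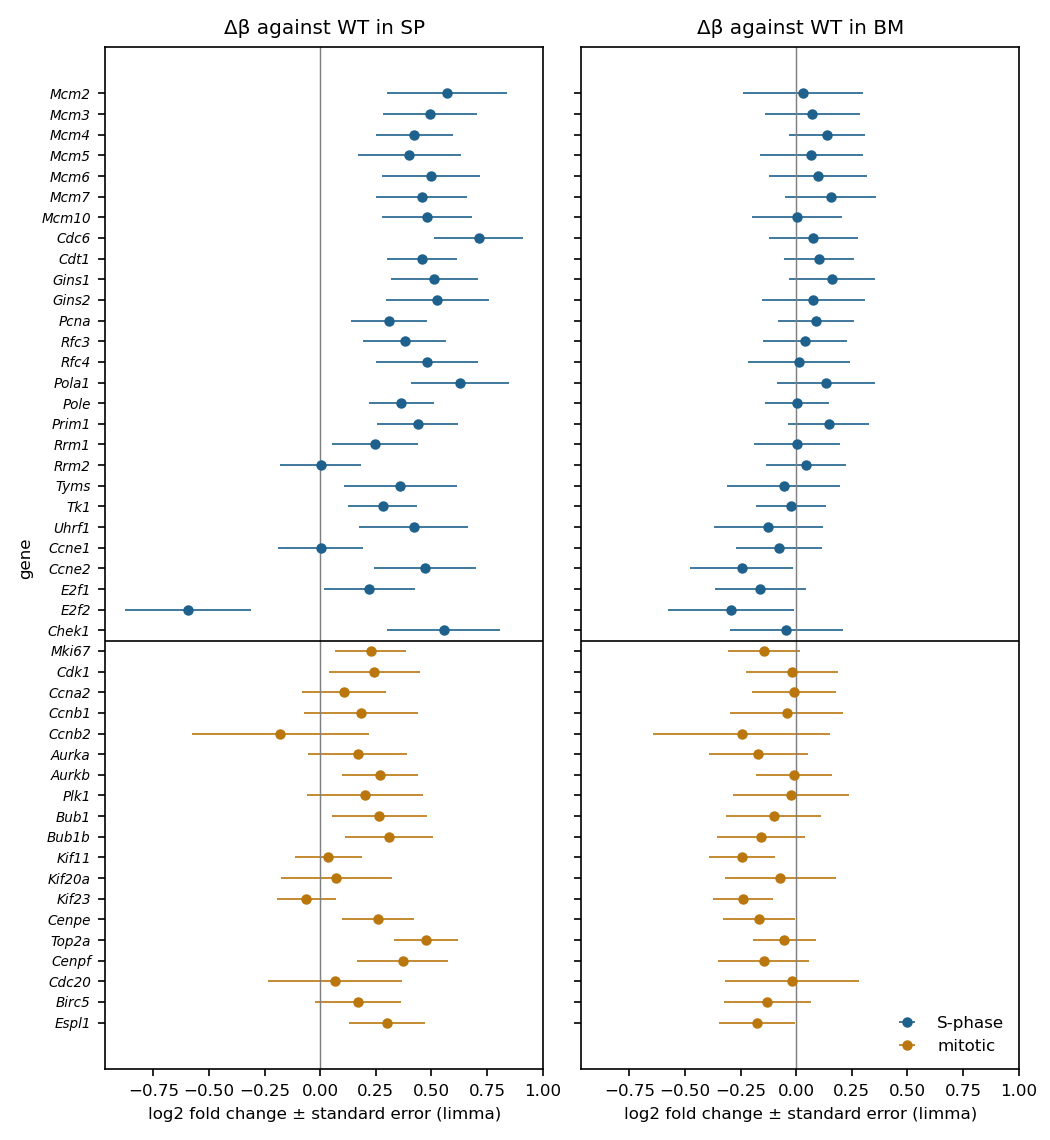
Log2 fold change of Δβ against WT (x axis, limma, bars ± 1 standard error) for the 46 members (y axis) in SP and BM, with S-phase genes above the line and mitotic genes below it. In SP 43 of 46 points lie right of 0 and Cdc6 lies furthest right at 0.71, and in BM all 19 mitotic points lie left of 0 with a median of -0.13.

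Ccnb2, cyclin B2, varied more within Δβ than between the genotypes (chromosome 9, 70407692 to 70421547, minus strand). It had 1021, 1733 and 2305 normalized counts in SP for WT against 1508, 880 and 2108 for Δβ, and in BM 1472, 1644 and 2126 for WT against 1742, 875 and 2029 for Δβ. Replicate 2 of Δβ was the low library in both organs, and the other Δβ libraries lay between 1508 and 2108. The log2 fold change was -0.18 in SP and -0.24 in BM, with an SE of 0.40 in each, the largest SE of the members.

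The second comparison was that of the genotypes in BM, where 0 of 46 members were called by limma, against 0.0697% of all genes. Also 0 members were past an unadjusted p of 0.05, against 1.25% of all genes higher and 1.33% lower, and edgeR and DESeq2 called 0 members. The median log2 fold change was 0.04 over the S-phase genes (19 of 27 above 0) and -0.13 over the mitotic genes (0 of 19 above 0), where 45.3% of all genes were above 0. With 1 library left out, the S-phase median ranged from -0.04 (without Δβ BM replicate 2) to 0.09 (without WT BM replicate 1), and was also below 0 at -0.02 without WT BM replicate 2. The mitotic median stayed below 0 and ranged from -0.19 (without Δβ BM replicate 3) to -0.06, with the values nearest to 0 without Δβ BM replicate 1 and WT BM replicate 3 (-0.07). In Mcm4, Gins1 and Prim1 all Δβ BM libraries were above all WT BM libraries, against 3.50% of all genes. In Ccne2, Bub1, Kif11, Kif23 and Cenpe they were below, against 4.13%.

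No BM difference of a member passed the test. Kif11, whose kinesin separates the spindle poles, had 2211, 2713 and 3362 normalized counts in SP for WT against 2626, 3099 and 2673 for Δβ, and in BM 3105, 3675 and 3630 for WT against 2766, 2926 and 3083 for Δβ, and its log2 fold change in BM was -0.24 (SE 0.15, adjusted p = 1.0 from limma). Kif23, a kinesin of the central spindle, had 1482 ± 59.7 normalized counts in Δβ BM and 1757 ± 218 in WT BM (SD, n = 3), a log2 fold change of -0.24 (SE 0.13, adjusted p = 1.0 from limma). Ccne2 had 336 ± 11.0 and 401 ± 54.9, a log2 fold change of -0.25 (SE 0.23). On the higher side, Gins1, a subunit of the GINS complex, had 496 ± 15.4 in Δβ BM and 444 ± 16.0 in WT BM, a log2 fold change of 0.16 (SE 0.19). Prim1, the catalytic subunit of primase, had 1196 ± 73.5 and 1080 ± 42.1, a log2 fold change of 0.15 (SE 0.18). Mcm4 had 3478 ± 121 and 3158 ± 124, a log2 fold change of 0.14 (SE 0.17). With 3 libraries against 3, an exact permutation test of a single gene cannot go below p = 0.1.

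The same WT SP libraries entered the comparison of SP with BM in WT blasts. Of the members, 45 were lower in SP and 1 higher (E2f2), and the median log2 difference was -0.25 over the S-phase and -0.25 over the mitotic genes, against -0.00 over all genes tested. With limma 0 members were called, as were 0% of all genes. At an unadjusted p under 0.05, 6 members were lower in SP (Cdc6, Pole, Ccne2, Kif11, Top2a and Cenpf), against 3.91% of all genes, and 0 higher, against 4.36%. Both edgeR and DESeq2 called 0 members, and DESeq2 called 0.924% of all genes. All WT SP libraries were below all WT BM libraries in Cdc6, Pole, Ccne2, Top2a and Cenpf, against 5.80% of all genes, and in 0 members they were above, against 5.66%.

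Ccne2 had the largest of these differences, 234 ± 79.0 normalized counts in WT SP and 401 ± 54.9 in WT BM (SD, n = 3), a log2 difference of -0.83 (SE 0.23, adjusted p = 0.580 from limma). For Cdc6 the difference was -0.59 (SE 0.20, adjusted p = 0.580 from limma) and for Cenpf, a kinetochore protein, -0.48 (SE 0.20, adjusted p = 0.599 from limma). Without WT SP replicate 1 the medians were -0.04 and -0.08, and 30 of 46 members were still below 0. Without WT SP replicate 3 they were -0.48 and -0.46, and 5 members were called lower in SP (Cdc6, Chek1, Bub1, Cenpe and Espl1), against 0.976% of all genes.

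In Δβ blasts SP and BM were close to each other. Again 0 members were called by limma, as were 0% of all genes, and 0 members were past an unadjusted p of 0.05 in either direction, against 0.654% of all genes higher and 1.12% lower. The edgeR test and DESeq2 called 0 members. The median log2 difference was 0.08 over the S-phase genes (24 of 27 above 0) and 0.04 over the mitotic genes (13 of 19 above 0), where 50.4% of all genes were above 0. With 1 library left out, the S-phase median ranged from 0.01 (without Δβ BM replicate 1) to 0.12 (without Δβ BM replicate 2), and the mitotic median from -0.02 (without Δβ SP replicate 3 and likewise without Δβ BM replicate 1) to 0.18 (without Δβ SP replicate 1). Rfc4, a subunit of the clamp loader, was the only member whose organs did not overlap, against 2.92% of all genes higher in SP. It had 546 ± 68.7 normalized counts in SP and 450 ± 49.2 in BM (SD, n = 3). Its nearest libraries, Δβ SP replicate 1 at 503.0 and Δβ BM replicate 2 at 502.3, were less than 1 read apart. In 0 members SP was lower without overlap, against 4.51%. The log2 difference of Rfc4 was 0.28 (SE 0.23, adjusted p = 1.0 from limma).

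**Figure D5:**
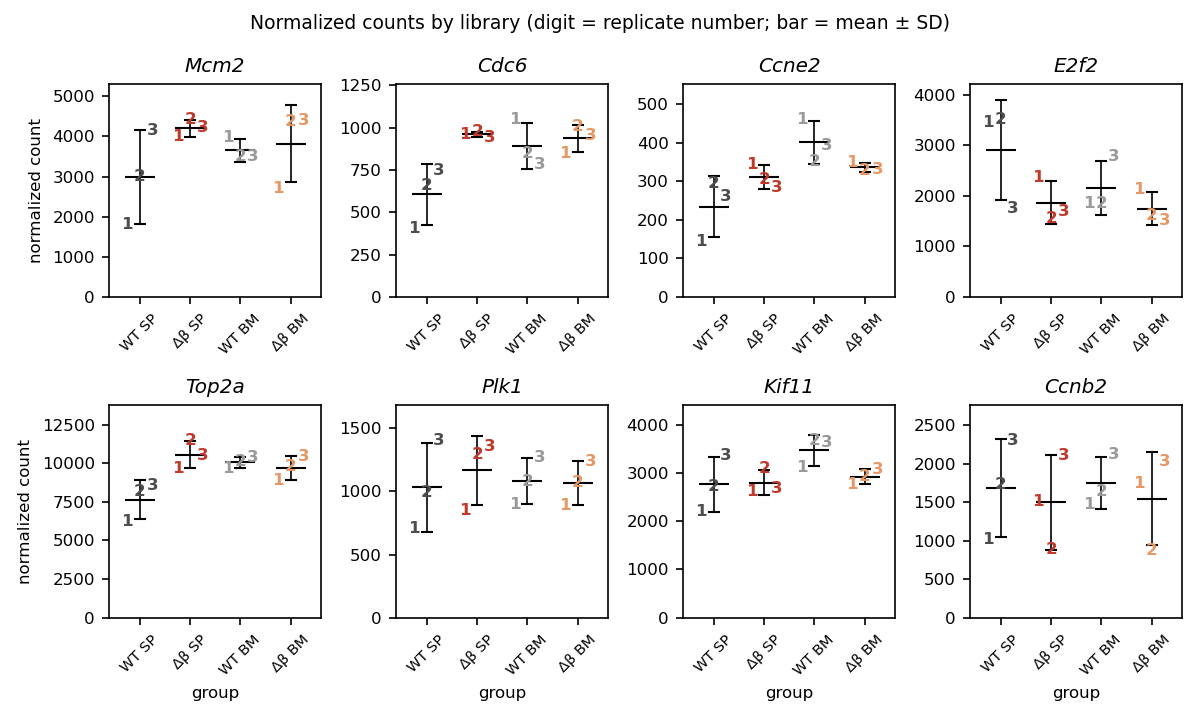
Normalized counts (y axis, from 0) of 8 members by group (x axis), where each digit is a library's replicate number and bars are the mean ± SD (n = 3). Cdc6 and Top2a are lower in all 3 WT SP libraries than in any Δβ SP library, E2f2 is highest in WT SP replicates 1 and 2, and Ccnb2 is low in replicate 2 of both Δβ groups.

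Whether the genotype difference itself differed between organs was tested with the interaction term of the same fit. It was above 0, a larger Δβ to WT ratio in SP than in BM, for 44 of 46 members, but 0 members and 0% of all genes were called by limma. At an unadjusted p under 0.05 were 2 members, Top2a (0.53, SE 0.20) and Cdc6 (0.63, SE 0.28), both above 0 (against 1.25% of all genes above 0 and 1.95% below), and the adjusted p was 0.926 from limma for both. The edgeR test and DESeq2 called 0 members. The median was 0.36 over the S-phase and 0.28 over the mitotic genes, against -0.00 over all genes tested, and 0.14 and 0.11 without WT SP replicate 1, or 0.58 and 0.49 without WT SP replicate 3. Without Δβ SP replicate 1 the mitotic median was 0.43.

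Other genes of the same processes were taken from lists written from general knowledge. Of 46 other replication genes, 44 had a log2 fold change above 0 in SP (against 48.1% of all genes) with a median of 0.28, 10 were higher at an unadjusted p under 0.05 (against 5.93%), and 0 were called. The median was 0.12 without WT SP replicate 1, and without WT SP replicate 3 it was 0.47 and 19 were called higher, against 4.70% of all genes. Dnmt1, the maintenance DNA methyltransferase, had 4013, 5365 and 5533 normalized counts in WT SP and 7472, 7103 and 7209 in Δβ SP, without overlap. Wdhd1, a replisome scaffold, had 925, 1201 and 1394 in WT SP and 1667, 1574 and 1741 in Δβ SP, without overlap, and limma's adjusted p was 0.218 for both. Of 47 other mitosis genes, 42 were above 0 with a median of 0.15, and 1 was past an unadjusted p of 0.05. The direction turned without WT SP replicate 1, with 14 of 47 above 0 and a median of -0.04, and without WT SP replicate 3 the median was 0.34 and 3 were called higher. As with the members, 39 of the other replication genes and 40 of the other mitosis genes were lowest in WT SP replicate 1. In BM the medians of these lists were -0.00 (23 of 46 above 0) and -0.09 (7 of 47 above 0).

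A list of 24 other cycle regulators was mostly of G1, but also held Cdc25b, Cdc25c, Wee1 and Pkmyt1, which act at the entry into mitosis. Of these 24, 14 were above 0 in SP with a median of 0.03. Without WT SP replicate 1 the count was 9 and the median -0.05. The median was 0.22 and 4 were called higher without WT SP replicate 3, against 4.70% of all genes. Skp2, which marks the inhibitor p27 for degradation, had 174, 248 and 242 normalized counts in WT SP and 358, 360 and 432 in Δβ SP, without overlap (log2 fold change 0.80, SE 0.21, adjusted p = 0.218 from limma). Among the D cyclins, which open G1, Ccnd1 and Ccnd2 had values in the opposite order. Ccnd1 had 302, 77.4 and 42.6 in WT SP against 92.2, 53.8 and 32.0 in Δβ SP, and Ccnd2 had 252, 73.1 and 45.7 against 55.0, 24.6 and 56.6. In both genes WT SP replicate 1 was the high library, and the log2 fold changes of -0.87 (SE 0.81, adjusted p = 0.593) and -1.13 (SE 0.85, adjusted p = 0.512) did not pass limma's test. Ccnd3, the D cyclin with the highest level, did not share this order. It had 3843, 4622 and 2757 in WT SP against 3438, 3127 and 3368 in Δβ SP, and the groups overlapped.

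All 6 tested CDK inhibitors, which brake the cycle, had a log2 fold change below 0 in SP, with a median of -0.43 and 0 called, where 48.1% of all genes were above 0. The median was -0.58 without WT SP replicate 1. Leaving out WT SP replicate 3 gave -0.83, with 1 inhibitor above 0 and 3 called lower, against 11.7% of all genes. Cdkn1a, which encodes p21, had 1780, 1141 and 502 normalized counts in WT SP and 605, 409 and 329 in Δβ SP (log2 fold change -1.21, SE 0.50, adjusted p = 0.307 from limma). Its libraries were ordered in WT SP opposite to the S-phase genes, highest in replicate 1 and lowest in replicate 3. Cdkn2a had 140, 127 and 66.0 in WT SP and 81.4, 52.6 and 18.1 in Δβ SP (log2 fold change -1.28, SE 0.90, adjusted p = 0.492 from limma). In BM the median over the 6 inhibitors was -0.16.

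Markers of other states and cells also differed between the WT SP libraries. The 14 mature myeloid markers had a mean log2 difference from their 12-library means of 0.95, 1.14 and -0.78 in SP for WT against -0.52, -0.29 and -0.54 for Δβ, and in BM -0.29, -0.26 and 0.81 for WT against 0.57, 0.06 and -0.85 for Δβ. Their summed level in SP was 124677 to 277492 normalized counts for WT against 84189 to 98805 for Δβ, and in BM 111069 to 310264 for WT against 77121 to 198604 for Δβ. The 15 immediate early genes, induced within minutes of stimulation or handling, had SP values of 1.88, 1.43 and 0.82 for WT against -1.05, 0.21 and -0.95 for Δβ, and BM values of -0.80, -1.09 and 0.70 for WT against 0.11, -1.03 and -0.23 for Δβ. WT BM replicate 3, high for both lists, had the highest mitotic score of the 12 libraries, 0.24, and an S-phase score of 0.05. WT SP replicates 1 and 2, also high for both lists, had S-phase scores of -0.68 and -0.18 and mitotic scores of -0.53 and -0.15. In Δβ BM replicate 1, next highest for the myeloid markers, the S-phase and mitotic scores were -0.05 and -0.13. All 11 AML blast markers were detected in every library. Their mean log2 difference from the 12-library means in SP was -0.68, 0.02 and 0.41 for WT against -0.01, -0.28 and 0.14 for Δβ. In BM it was 0.09, -0.02 and -0.03 for WT against 0.27, -0.13 and 0.21 for Δβ. In WT SP replicate 1, 8 of the 11 markers were below their 12-library mean. All 11 together summed in SP to 75597 to 153060 for WT against 79524 to 123016 for Δβ. In BM they summed to 66425 to 80254 for WT against 77935 to 119317 for Δβ. The markers did not all move together in the WT SP replicates. Mpo, myeloperoxidase, had 5947, 5256 and 40587 there, whereas Ptprc, the leukocyte antigen CD45, had 20833, 14695 and 6066, and Itgam, the integrin CD11b, had 26293, 21981 and 10941. The ribosomal RNA gene Rn45s took 0.725, 2.48 and 2.41% of the normalized counts in WT SP and at most 0.655% in the other libraries. The part of these markers in the differences of the replication and mitosis genes was not tested.

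Markers of other blood cells that a sort could hold were then summed. The 10 erythroid markers summed to 5.43 to 19.3 normalized counts in any library, and the hemoglobin genes of that list were at 0 in all libraries. The 9 T and NK cell markers summed in SP to 17.0 to 30.4 for WT against 11.2 to 168 for Δβ, and in BM to 10.1 to 19.8 for WT against 18.7 to 456 for Δβ. The 6 B cell markers summed in SP to 284 to 405 for WT against 404 to 466 for Δβ, and in BM to 224 to 440 for WT against 365 to 441 for Δβ, most of it Cd79b. The 9 macrophage markers summed in SP to 2745 to 4887 for WT against 2968 to 4613 for Δβ, and in BM to 5165 to 8229 for WT against 3756 to 4824 for Δβ. Most of these sums was Adgre1, which encodes F4/80, at 1733 to 3880, and Vcam1, an adhesion molecule, at 699 to 5511, whereas the complement gene C1qa was at most 14.8 and C1qb at most 30.8.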

How the data were processed

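Poly-A enriched RNA of sorted Venus-positive blasts was sequenced from 12 libraries, 3 for each of WT SP, Δβ SP, WT BM and Δβ BM, grouped by the genotype, organ and number in their labels. The submitters' processing notes name FastQC, STAR, featureCounts and DESeq2 and the builds GRCm38 and mm10, without versions. The values deposited by the authors are a signal, namely read counts of genes scaled by a single size factor for each library. In every library 100% of the values were whole numbers of reads within 0.01 reads once this scaling was undone, so whole reads were recovered. Depth was 9001051 to 13859727 reads on genes, and intervals from it would cover counting error only. The table also holds 6 columns that no sample label describes, which were not used.

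Log2(normalized count + 1) was tested with limma 3.58.1 (R 4.3.3, eBayes with trend, 1 mean per group) over 11476 genes (mean of at least 10), with Benjamini-Hochberg adjustment. Log2 fold changes on this scale understate those of low genes. Alternatives were edgeR 4.0.16 and DESeq2 1.42.0 on the recovered reads, pseudocounts of 0.25 and 4, no filter or a minimum mean of 50, TMM and quantile rescaling, no trend, the 6 libraries of a comparison alone, a replicate block and each library left out in turn. The main limma fit, edgeR and DESeq2 were first tested on simulated data, for the genotype comparison in SP only. The members, the other gene lists, the motifs and the comparisons were chosen with earlier results of these data known. Values in every library are given for 12 members fixed by name. The members of each comparison with the 3 largest differences in each direction, among those whose groups did not overlap, are also named. Some of these have values by library, and others have group means or a log2 difference only. Of other lists the same rule names at most 2 genes per direction, plus Cdkn1a, Cdkn2a, Ccnd1 and Ccnd2, and was written out for the genotypes in SP. Genes of these lists also did not overlap in the other comparisons, where only Dnmt1, Anln and E2f5 are described. Beyond this rule, Mcm4, Kif11 and Ccne2 were given by library in all groups, and E2f2, Ccnb2 and Ccnd3 were added, with their values in view. Positions of genes and exon lengths are from GENCODE M21 on GRCm38, and start regions from RefSeq on GRCm38.p6.

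Same-numbered SP and BM libraries of Δβ deviated together from their group means (correlation across genes 0.61 to 0.67, against -0.49 to -0.18 between different numbers), so the numbers pair these samples. In the organ comparisons and the interaction, the replicate block paired SP and BM of the same number. In the genotype comparisons it paired WT and Δβ of the same number, so the pairing of SP with BM was not modelled there. The block changed no call among the members. Libraries of 1 group correlated at 0.897 to 0.968 across genes, and none were duplicates within sampling noise.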

Additional observations from a re-analysis of the deposited data

Results flagged for a closer look

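In 3 genes of the other lists, 2 comparisons went in opposite directions without overlap of their samples. The share of all tested genes with such a pattern is not given here. Dnmt1 had a log2 difference of -0.44 between SP and BM in WT, with all WT SP libraries below all WT BM libraries, while all Δβ SP libraries were above all Δβ BM libraries (0.23). Anln, which encodes anillin of the cleavage furrow, had a log2 fold change of Δβ against WT of 0.28 in SP and -0.25 in BM, without overlap in either organ. Its nearest SP libraries almost met, at 1336 normalized counts (WT replicate 2) and 1338 (Δβ replicate 1). E2f5, an E2F of the repressor group, had 0.79 in SP and -0.60 in BM, without overlap in either, at 10.5 to 48.2 normalized counts. In BM its nearest libraries were at 24.17 (WT replicate 3) and 23.92 (Δβ replicate 1), less than 1 read apart. The order of the samples that marks these genes was not tested. The genes were picked for opposite differences in these same data, so the following unadjusted p-values are not independent of that choice. The interaction term of limma gave unadjusted p-values of 0.0120 for Dnmt1, 0.0128 for Anln and 0.0195 for E2f5, each with an adjusted p of 0.926, and 0 of 11476 genes were called by that term (367 at an unadjusted p under 0.05, 0 by edgeR and 3 by DESeq2).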

How the results depend on the processing

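The median log2 fold changes of the S-phase and mitotic genes moved by less than the spread between replicates in all 114 settings of each. That spread is wide, and with 1 library left out the median still changed sign for the mitotic genes in SP (-0.00 to 0.43) and between organs in Δβ (-0.02 to 0.18), and for the S-phase genes between genotypes in BM (-0.04 to 0.09). Of 299 results for named members, 294 kept their direction and side of the threshold and 5 passed it only under an alternative. The number of members called moved from 0 in SP to 1 with DESeq2, and with 1 library left out ranged from 0 to 25 in SP and from 0 to 5 for organ in WT, the highest without WT SP replicate 3. The number of all genes called in SP, 12, was 481 with DESeq2, 5 with edgeR, 1 with a pseudocount of 0.25, 5 without a filter, 2 with a minimum mean of 50, 3 with TMM, 3 without trend, 2 with the 6 libraries alone and 1 with the replicate block, and 1 to 1886 with a library left out. In BM it was 8, and 37 with DESeq2, 5 without trend, 3 with the 6 libraries alone, 1 with the replicate block and 1 to 13 with a library left out. With DESeq2 the 0 genes called became 106 for organ in WT, 2 for organ in Δβ and 3 for the interaction, and leaving out a library gave 0 to 598 for organ in WT. The cause of these changes was not tested. Same-numbered libraries correlated at -0.24 to -0.01 between SP and BM in WT, -0.17 to 0.20 between genotypes in SP and -0.09 to 0.13 in BM. No pairing by number was thus seen there, which does not settle whether same-numbered WT samples share a host. The block called 0 members in any comparison. Precision is limited by 3 libraries per group rather than by depth, as every member had at least 127 reads in each library.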
